A study of Mus musculus with 15 samples.

Results

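The Nrf2 antioxidant genes are 10 genes, the transcription factor Nfe2l2 (which encodes Nrf2), its inhibitor Keap1 and 8 enzymes or transporters that Nrf2 is known to induce: Nqo1, Hmox1, Srxn1, Txnrd1, Gclc, Gclm, Gsr and Slc7a11. They were taken by symbol from the platform annotation, which pairs them with 21 of the 45101 probe sets of the array. The probe sets were thus not selected by their values, but the genes were chosen with earlier results of these data known. All 10 genes passed the filter on low values, as did 13644 of 18193 genes in all. The tissue was the auditory nerve of CBA/CaJ mice aged 5 to 12 weeks, and 15 arrays were run, 3 in each of 5 groups. Each array has 1 sex in its labels, and whether a sample pools animals is not stated, so p-values measure the spread between these samples. The controls are labelled as without exposure, and the other groups were taken immediately, 1 day, 7 days or 14 days after octave-band noise between 8 and 16 kHz at a level of 106 dB SPL that lasted 2 h. No genotype other than the strain is given. The dissection kept the modiolus and took away the outer bone, lateral wall and most sensory epithelium. Every control is labelled female and every 1-day sample male, while the immediate, 7-day and 14-day groups each held 2 females and 1 male. Each time was compared with control and with the time before it.

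Nrf2 is a transcription factor that is made continuously and destroyed as fast, because Keap1 presents it to a Cul3 ubiquitin ligase. Oxidants and electrophiles modify cysteines of Keap1, Nrf2 then escapes destruction, pairs with a small Maf protein and binds antioxidant response elements in DNA, so that the pathway is switched mainly at the level of the protein. Loud sound is known to raise reactive oxygen species in the cochlea, which is why the enzymes under Nrf2 are often studied there. They fall into arms: glutathione (Slc7a11 imports cystine, Gclc and Gclm are the catalytic and modifier subunits that join glutamate to cysteine, Gsr returns oxidised glutathione to its reduced form), thioredoxin (Txnrd1 reduces thioredoxin, Srxn1 repairs hyperoxidised peroxiredoxins), heme breakdown (Hmox1) and quinone reduction (Nqo1).

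Promoter windows were in the RefSeq-derived table of build GRCm38.p6 for 7 of the 10 members, as 9 windows of 300 bases that run from 250 bases before to 50 after an annotated start. Hmox1, Gclc and Gsr had no entry. The windows below are those of Srxn1, which rose at 1 day, of Txnrd1, from the same thioredoxin arm, and of Gclm, from the glutathione arm, both not called at that time. They are written 5′ to 3′ on the strand of the gene. Capitals mark the antioxidant response element core, TGACNNNGC, and the sequence TGANTCAGC, which joins the AP-1 site TGANTCA to the GC end of a Maf-type element, each on either strand.
Srxn1, chr2:152105274-152105573, plus strand: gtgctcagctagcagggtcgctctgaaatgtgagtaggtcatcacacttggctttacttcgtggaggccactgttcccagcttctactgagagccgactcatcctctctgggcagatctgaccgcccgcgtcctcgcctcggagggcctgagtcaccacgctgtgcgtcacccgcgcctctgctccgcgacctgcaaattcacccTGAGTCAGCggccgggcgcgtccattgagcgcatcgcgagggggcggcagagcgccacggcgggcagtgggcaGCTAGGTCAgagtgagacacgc
Gclm, chr3:122245307-122245606, plus strand: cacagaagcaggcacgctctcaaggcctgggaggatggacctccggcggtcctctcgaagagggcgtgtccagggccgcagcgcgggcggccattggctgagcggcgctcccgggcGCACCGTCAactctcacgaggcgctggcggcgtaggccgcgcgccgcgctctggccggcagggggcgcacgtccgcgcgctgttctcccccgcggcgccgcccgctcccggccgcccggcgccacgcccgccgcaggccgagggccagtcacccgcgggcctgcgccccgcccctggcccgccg
Txnrd1, chr10:82858956-82859255, plus strand, the second of 3 windows: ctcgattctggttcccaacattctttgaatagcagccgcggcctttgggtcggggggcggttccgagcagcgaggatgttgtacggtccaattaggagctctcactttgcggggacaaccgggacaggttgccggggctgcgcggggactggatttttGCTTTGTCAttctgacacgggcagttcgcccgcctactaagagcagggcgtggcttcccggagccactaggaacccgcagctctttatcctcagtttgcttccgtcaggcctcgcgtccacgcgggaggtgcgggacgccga
The Srxn1 window held the match TGAGTCAGC from -45 to -37, counted from the start, and a core match, TGACCTAGC, on the other strand from 29 to 37. It held the shorter TGANTCA at 2 places, one of them inside TGAGTCAGC. Of 32851 windows of this length for 27025 genes, 12.4% held TGACNNNGC, 1.19% held TGANTCAGC and 7.81% held TGANTCA. Gclm had 1 core match, TGACGGTGC, from -134 to -126, and the second Txnrd1 window 1, TGACAAAGC, from -92 to -84, both on the other strand. Nfe2l2 had the core match TGACTCCGC from -240 to -232. The windows of Keap1, Nqo1 and Slc7a11 and the other windows of Txnrd1 held none of these sequences. A match is a description of the letters and not a measured binding site.

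Values are log2 intensities as deposited, from 2.06 to 14.63 over the table, with array medians between 5.87 and 5.92. Levels of different probe sets are not comparable, so each is set only against itself. A difference is a log2 fold change, its error is the standard error of the fit, and a gene is called where its adjusted p is under 0.05. The fit was limma over all 15 arrays with Benjamini-Hochberg adjustment over all 13644 genes, each represented by its brightest probe set. The tissue check found all 10 neuron markers and all 7 Schwann cell and myelin markers with a probe set above the filter level of 4.70, and 4 of 6 hair cell markers, Slc26a5 and Atoh1 being below it. Also above it were all 6 markers of supporting cells and fibrocytes, 7 of 7 of bone and 7 of 7 of endothelium. So were 13 of 14 of macrophages, 6 of 7 of neutrophils and 2 of 4 of erythroid cells. The check therefore does not show a nerve sample free of neighbouring tissue. The difference between 3′ and 5′ control probe sets, a sign of RNA integrity, ran from 0.49 to 0.56 for beta-actin in controls and from 0.45 to 0.50 at 1 day, and for Gapdh from -0.26 to -0.18 and from -0.27 to -0.23. Neutrophil markers varied within groups, the log2 of their summed intensity being 8.53 to 12.08 in controls, 9.02 to 11.59 immediately and 9.04 to 9.85 at 1 day. It was 8.68 to 9.97 at 7 days and 7.92 to 8.33 at 14 days, the 14-day arrays lying below all others. The median difference from control at 14 days was -1.54, with 0 called. Of the 6 tested, 4 had an unadjusted p under 0.05 at that time, beside 7.85% of all genes. In whole tissue, a change in the number of cells of a type and a change of RNA per cell cannot be told apart.

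With each gene represented by its brightest probe set, sulfiredoxin, Srxn1, was the member called against control, and it was called at 1 day. A dimmer probe set of Nfe2l2 was also called at that time, as described with that gene. The 3 controls of Srxn1 lay at 8.58, 8.55 and 8.55, and its immediate arrays at 8.57, 8.65 and 8.54. Its 1-day arrays lay at 9.09, 9.16 and 9.16, the 7-day arrays at 8.64, 8.70 and 8.67, and the 14-day arrays at 8.49, 8.54 and 8.53. The 3 arrays at 1 day stood above all 12 others. The remaining groups lay between 8.49 and 8.70, with the 7-day arrays above all controls and all 14-day arrays. The rise at 1 day was 0.58 ± 0.05, or 1.49-fold, from a control mean of 8.56 ± 0.02 (SD, n = 3) to 9.14 ± 0.04 (SD, n = 3), with an adjusted p of 0.000152. By its p Srxn1 ranked 1 among the 13644 genes in this comparison, a rank that reflects its small spread as well as its size. It also rose from immediately to 1 day, by 0.55 ± 0.05 (adjusted p = 9.47e-05), and fell from 1 to 7 days, by 0.47 ± 0.05 (adjusted p = 0.000556). Against control the difference was 0.03 immediately, 0.11 at 7 days and -0.04 at 14 days, none of them called, with 95% intervals of -0.08 to 0.14, 0.00 to 0.22 and -0.15 to 0.07. Over the 5 groups the moderated F test gave an adjusted p of 0.000128. Leaving out each array in turn moved the 1-day rise between 0.56 and 0.60, and it was called each time.

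**Figure D1:**
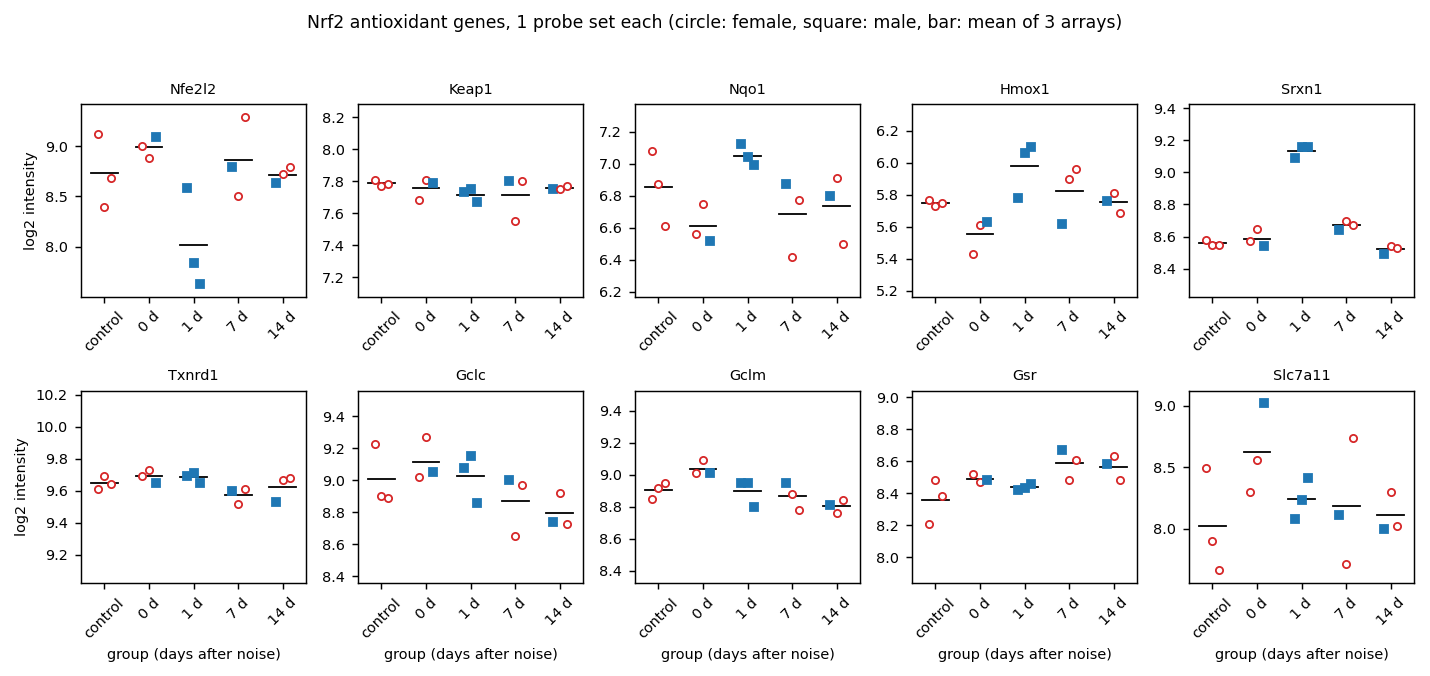
Log2 intensity (vertical axis, a scale of its own in each panel) of the 10 members by group (horizontal axis, days after noise), 1 probe set per gene. Points are arrays, circles female and squares male, and bars are means of 3 arrays. In Srxn1 the 1-day arrays, at 9.09 to 9.16, stand above all others, while in Keap1 the arrays of all groups lie between 7.55 and 7.81.

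Srxn1 has 4 probe sets, and a fit of every probe set by itself showed the rise in 3 of them. In this fit, over 34945 probe sets paired with 1 gene, 1.50% were called at 1 day against control. Probe set 1451680_at read 7.91, 7.96 and 7.80 in controls and 8.56, 8.61 and 8.68 at 1 day, a rise of 0.73 ± 0.07 (adjusted p = 0.000449). Its immediate arrays, at 8.02 to 8.17, and 7-day arrays, at 8.05 to 8.21, also lay above every control. Those differences, 0.20 ± 0.07 (adjusted p = 0.230) and 0.26 ± 0.07 (adjusted p = 0.249), were not called. Probe set 1425351_at went from 7.00, 7.08 and 7.03 to 7.75, 7.68 and 7.81, a rise of 0.71 ± 0.09 (adjusted p = 0.00125). In both, all 1-day arrays lay above the arrays of the other 4 groups. The dimmest, 1419942_at, had 6.37, 6.32 and 6.19 in controls and 6.65, 6.44 and 6.72 at 1 day, a difference of 0.31 ± 0.12 that was not called (adjusted p = 0.233), and immediate replicate 2 exceeded all of these at 6.78.

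The sex of the animals changed along with time in this comparison. The 3 male arrays outside the 1-day group had Srxn1 values of 8.49 to 8.64, and the 9 female arrays 8.53 to 8.70. As all controls were female and all 1-day samples male, a sex difference particular to 1 day cannot be told apart from the effect of noise. With sex as a term of the fit, estimated from the 3 groups that held both sexes, the rise at 1 day was 0.63 ± 0.07 and remained called (adjusted p = 0.00279). For probe set 1425351_at the call ended with the term, at 0.62 ± 0.12 (adjusted p = 0.0530). Macrophage markers were also higher at 1 day: 7 of 13 tested rose and 0 fell. Of all genes, 1.52% were called higher and 1.66% lower in this comparison. The log2 of their summed intensity was 12.10 to 12.23 at 1 day, 11.39 to 11.56 in controls, 11.18 to 11.52 immediately, 11.23 to 11.83 at 7 days and 11.22 to 11.53 at 14 days. Of the 14 markers, Itgam lay under the filter level. Bone markers were lower at 1 day, 2 of 7 being called (Dmp1 and Ibsp), with a median difference of -0.81 and a summed level of 11.22 to 11.68 against 12.02 to 12.92 in controls. The upper control value was that of replicate 3, and the other controls lay at 12.02 and 12.03. The lower level was not particular to 1 day: the median was -0.25 immediately, -0.55 at 7 days and -0.68 at 14 days, with 0 called. Among the other lists, the Schwann cell markers Cnp and S100b and the fibrocyte marker Otos fell, and the neuron marker Uchl1 rose. By the median difference, these single markers do not stand for their lists. The median difference was -0.01 over 7 Schwann cell markers, 2 of them above 0. It was 0.055 over 6 supporting cell and fibrocyte markers, 3 above 0, and -0.05 over 10 neuron markers, 3 above 0. By the summed level, each of these lists was lower on every 1-day array than on any control. Supporting cells and fibrocytes read 14.96 to 15.14 against 15.26 to 15.33 in controls, and Schwann cells 15.24 to 15.35 against 15.38 to 15.44. In both, the 1-day arrays lay below those of all other groups. Neurons read 15.12 to 15.19 against 15.24 to 15.31. Endothelium went the other way, at 11.61 to 11.89 against 11.44 to 11.59. The part of any cell type in the Srxn1 result was not tested.

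The genes whose pattern was most like that of Srxn1 over the 15 arrays were Snhg1, a noncoding host of small nucleolar RNAs, Plekho1 and the kinase gene Tnik. Their root mean square differences from Srxn1, on mean-centred log2 values, were 0.11, 0.12 and 0.12. The median over all other genes tested was 0.27, and a gene with the same value on every array would score 0.23.

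Nfe2l2 itself gave opposite readings from its pair of probe sets at 1 day. The brighter, 1416543_at, which stands for the gene in the fit, read 9.12, 8.40 and 8.68 in controls, 9.00, 8.88 and 9.09 immediately, 8.58, 7.84 and 7.63 at 1 day, 8.79, 8.50 and 9.29 at 7 days, and 8.63, 8.72 and 8.79 at 14 days. The 1-day arrays spread over almost a whole log2 unit, with replicate 1 inside the control range and the other two below it. The difference from control was -0.72 ± 0.23, which was not called (adjusted p = 0.103). Without 1-day replicate 1 it was larger and was called (adjusted p = 0.0203). From immediately to 1 day the probe set fell by 0.97 ± 0.23 (adjusted p = 0.0198), and from 1 to 7 days it rose by 0.84 ± 0.23 (adjusted p = 0.0331).

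The other probe set, 1457117_at, read 5.96, 6.63 and 6.04 in controls, 6.02, 5.65 and 6.44 immediately, 7.63, 8.23 and 8.22 at 1 day, 5.65, 5.59 and 6.44 at 7 days, and 5.86, 6.75 and 6.44 at 14 days. All 3 arrays of 1 day stood above the remaining 12. In the fit of every probe set it rose by 1.82 ± 0.27 at 1 day against control (adjusted p = 0.00353) and by 1.99 ± 0.27 from immediately to 1 day (adjusted p = 0.000924), and it fell by 2.13 ± 0.27 from 1 to 7 days (adjusted p = 0.000617). Its difference from control was -0.17 immediately, -0.32 at 7 days and 0.14 at 14 days, none called. Both probe sets thus moved at 1 day relative to the times before and after, in opposite directions, and no single direction can be given for Nfe2l2. The mean over both gave 0.55 at 1 day against control (adjusted p = 0.128), 0.51 from immediately to 1 day (adjusted p = 0.105) and -0.65 from 1 to 7 days (adjusted p = 0.0434). Where the probes of each set lie in the transcript was not analysed here.

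**Figure D2:**
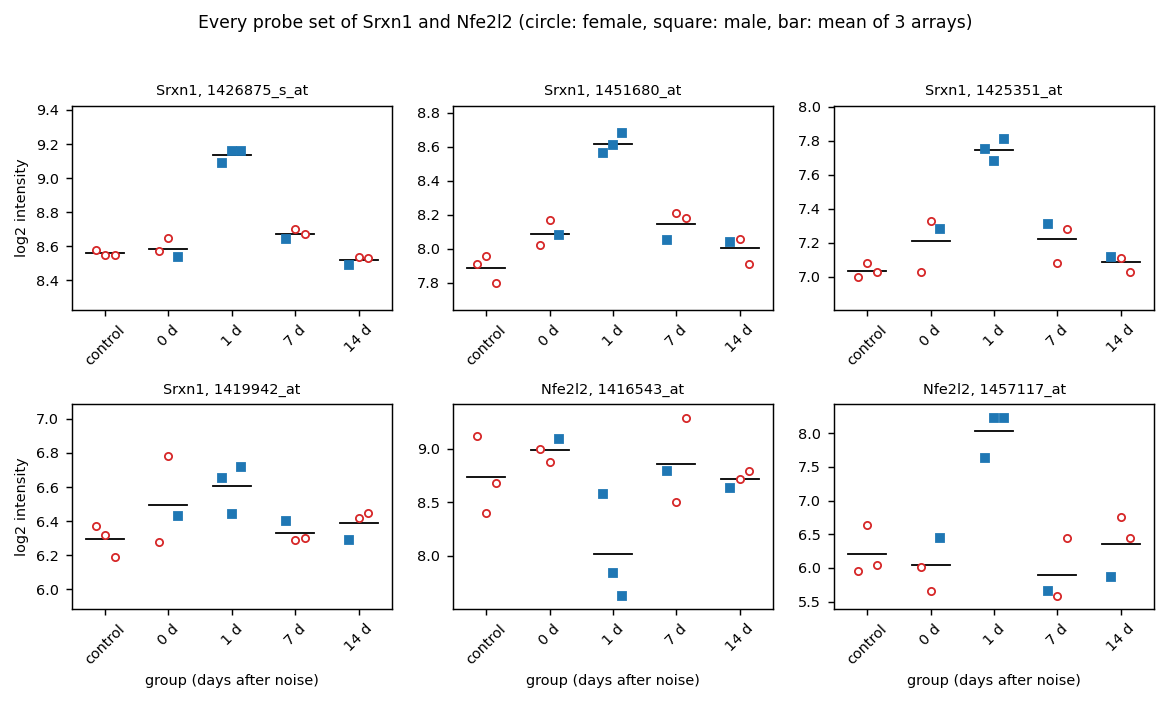
Log2 intensity (vertical axis, own scale per panel) of the 4 probe sets of Srxn1 and the 2 of Nfe2l2 by group (horizontal axis, days after noise). Points are arrays, circles female and squares male, and bars are means of 3 arrays. At 1 day Nfe2l2 reads 7.63 to 8.58 on 1416543_at, with 2 arrays below every control, and 7.63 to 8.23 on 1457117_at, above every other array.

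These calls of Nfe2l2 had limits. The 3 male arrays outside 1 day read 5.65 to 6.44 on 1457117_at and the 9 female arrays 5.59 to 6.75. With sex as a term its difference from control was 1.98 ± 0.37 (adjusted p = 0.0527), and those from the immediate and 7-day groups remained called. The calls of 1416543_at ended with the term, at -0.96 (adjusted p = 0.0601) from immediately to 1 day and 0.83 (adjusted p = 0.106) from 1 to 7 days. The first also ended without immediate replicate 1 (-0.97, adjusted p = 0.0538) or 3 (-0.92, adjusted p = 0.0800) or 1-day replicate 2 (-0.89, adjusted p = 0.0787) or 3 (-0.78, adjusted p = 0.0824). The second ended without 1-day replicate 2 (0.76, adjusted p = 0.128) or 3 (0.65, adjusted p = 0.121) or 7-day replicate 1 (0.88, adjusted p = 0.0576) or 3 (0.63, adjusted p = 0.0985). The rise of 1457117_at at 1 day was called whichever array was left out, between 1.69 and 2.03.

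Keap1 was not called in any comparison. Probe set 1450746_at had 7.81, 7.77 and 7.78 in controls, 7.68, 7.81 and 7.79 immediately, 7.73, 7.75 and 7.67 at 1 day, 7.80, 7.55 and 7.80 at 7 days, and 7.75, 7.75 and 7.77 at 14 days. The 1-day arrays lay just under the controls, with a difference of -0.07 ± 0.07 that was not called (adjusted p = 0.674) and a 95% interval of -0.22 to 0.08. Its dimmer probe set, 1450747_at, read 5.91, 5.85 and 5.64 at 1 day and 6.18, 6.30 and 6.14 at 7 days. These groups did not overlap, and the difference of 0.41 ± 0.13 was not called (adjusted p = 0.0779).

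Among the glutathione genes, the cystine transporter gene Slc7a11 had the largest difference from control, and it was not called. Probe set 1443536_at read 8.49, 7.90 and 7.66 in controls and 8.30, 8.56 and 9.02 immediately after noise. The groups overlapped, since control replicate 1 lay above immediate replicate 1, and the difference was 0.61 ± 0.25 (95% interval 0.09 to 1.13, adjusted p = 0.243). With array weights it was 0.81 and was called (adjusted p = 0.0387). The dimmer 1420413_at read at most 6.26 in controls, 6.37, 6.49 and 7.02 immediately and 6.75, 6.50 and 6.65 at 1 day, so that no array of these noise groups fell among the controls. Its differences, 0.52 ± 0.18 at each of the times, were not called either (adjusted p = 0.205 and 0.172).

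Gclc, the catalytic subunit gene, gave like readings on both probe sets. Probe set 1424296_at ran from 8.65 to 9.27 over the arrays and 1455959_s_at from 8.70 to 9.17, and the differences from control lay between -0.21 and 0.12 at all times on either. Gclm, the modifier subunit gene, had 8.85, 8.92 and 8.95 in controls and 9.01, 9.09 and 9.01 immediately on 1418627_at, which did not overlap, a difference of 0.13 ± 0.06 (adjusted p = 0.326). At 1 day this difference was -0.01, with a 95% interval of -0.14 to 0.12. Its other probe set, 1439050_at, read 8.21, 8.12 and 8.18 in controls, 8.23, 8.17 and 8.21 at 1 day, 8.16, 7.72 and 7.78 at 7 days, and 7.95, 7.99 and 7.91 at 14 days. The 14-day arrays lay under all controls, and the differences of -0.28 ± 0.09 at 7 days and -0.22 ± 0.09 at 14 days were not called (adjusted p = 0.280 and 0.567). Glutathione reductase, Gsr, read 8.21, 8.48 and 8.38 in controls, 8.67, 8.48 and 8.61 at 7 days and 8.58, 8.63 and 8.48 at 14 days on 1421816_at. These were differences of 0.23 ± 0.07 (adjusted p = 0.277) and 0.21 ± 0.07 (adjusted p = 0.528), and they were 0.03 and 0.05 on the second probe set, 1421817_at.

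Txnrd1, the cytosolic thioredoxin reductase gene, had the narrowest range among the probe sets that represent the members, 0.21. Probe set 1421529_a_at lay between 9.52 and 9.73 on all 15 arrays, and at 1 day its difference from control was 0.04 ± 0.05, with a 95% interval of -0.07 to 0.15 that does not reach the interval of Srxn1, 0.47 to 0.69. The other 2 probe sets, 1424486_a_at and 1424487_x_at, differed from control by -0.19 to 0.10 at the 4 times, and none was called.

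Heme oxygenase 1, Hmox1, was low immediately after noise and high at 1 day. It read 5.77, 5.73 and 5.75 in controls, 5.43, 5.61 and 5.63 immediately, 5.78, 6.06 and 6.10 at 1 day, 5.62, 5.90 and 5.96 at 7 days, and 5.76, 5.81 and 5.69 at 14 days. All immediate arrays lay below the controls and all 1-day arrays above them, but neither difference was called, at -0.19 ± 0.11 (adjusted p = 0.424) and 0.23 ± 0.11 (adjusted p = 0.286). From immediately to 1 day Hmox1 rose by 0.42 ± 0.11 (adjusted p = 0.0294). That call ended with sex as a term (0.47, adjusted p = 0.0546) and without immediate replicate 1 (0.36, adjusted p = 0.101), 2 (0.45, adjusted p = 0.0539) or 3 (0.46, adjusted p = 0.0660) or 1-day replicate 2 (0.38, adjusted p = 0.103) or 3 (0.36, adjusted p = 0.106). Macrophages are a known source of Hmox1, and the macrophage markers were higher at 1 day, as given for Srxn1, with their part in this rise not tested.

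The quinone reductase gene Nqo1 followed a like course on its 1 probe set. It read 7.08, 6.87 and 6.61 in controls, 6.56, 6.75 and 6.52 immediately, 7.12, 7.04 and 6.99 at 1 day, 6.87, 6.42 and 6.77 at 7 days, and 6.80, 6.91 and 6.50 at 14 days. The controls spread over most of that range, and the differences from control, between -0.24 and 0.20, were not called. The 1-day arrays lay above all immediate arrays, by 0.44 ± 0.14 (adjusted p = 0.0654). This was called without 7-day replicate 2 (0.44, adjusted p = 0.0407), with the replicate number as a block (adjusted p = 0.0486), with array weights (0.45, adjusted p = 0.0317) and in a fit to those groups alone (adjusted p = 0.0212). With sex as a term it was 0.39 and not called (adjusted p = 0.187), and with other arrays left out the adjusted p reached 0.198.

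**Figure D3:**
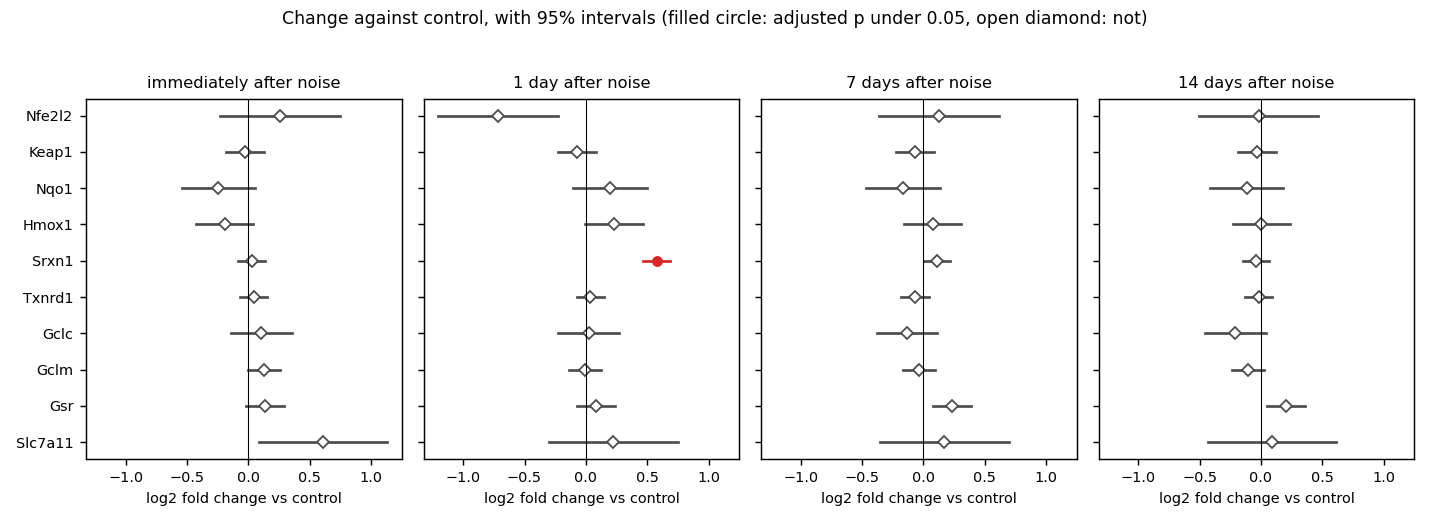
Log2 fold change against control (horizontal axes) of the 10 members (rows), 1 panel for each time after noise, with 95% intervals from the fit to 3 arrays per group. The filled circle, Srxn1 at 1 day, is the 1 call, at 0.58. All other members are open diamonds, the lowest Nfe2l2 at -0.72 and the highest Slc7a11 at 0.61 immediately.

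In counts, limma called 0 of the 10 members immediately after noise, where 0.931% of all genes were called. At 1 day 1 member rose and 0 fell, beside 3.18% of all genes, of which 1.52% were higher and 1.66% lower. At 7 and 14 days 0 members were called, beside 0.0220% and 0% of all genes. At an unadjusted p under 0.05, 1, 2, 2 and 1 of the 10 members passed at these times, beside 15.5%, 17.9%, 11.2% and 7.85% of all genes. From immediately to 1 day 2 members rose and 1 fell, beside 8.39% of all genes (4.02% higher and 4.38% lower). From 1 to 7 days 1 rose and 1 fell, beside 9.35% (5.13% higher and 4.22% lower), and from 7 to 14 days 0 were called, beside 0%. In that last step 1 member passed an unadjusted p under 0.05, beside 2.1% of all genes. The groups did not overlap for 2, 3, 1 and 2 members against control at the successive times, and for 21.2%, 22.6%, 12.8% and 14.2% of all genes. Between consecutive times they did not overlap for 6, 4 and 1 members and for 29.4%, 23.8% and 4.48% of all genes. The F test called 1 member, beside 6.75% of all genes. Of the 21 probe sets, taken one by one, 4 were called at 1 day and 0 at the other times against control, where 0.661%, 0.0458% and 0% of all probe sets were called immediately, at 7 days and at 14 days. From immediately to 1 day 6 were called, beside 4.91% of all, from 1 to 7 days 5, beside 5.62%, from 7 to 14 days 0, beside 0%, and by the F test 4, beside 5.13%. The median difference of the members was 0.075, 0.06, 0.02 and -0.03 at these times, and that of all genes -0.02, -0.01, 0.01 and 0.02. The comparisons against control share the 3 control arrays.

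Beyond the members, 88 further genes were listed, of which 76 were tested. They are partners, regulators and other targets of Nrf2, and genes of related antioxidant, NADPH, heme and iron functions. Whether each depends on Nrf2 in this tissue was not tested. At 1 day 6 of them rose and 1 fell, or 9.21%, where 3.18% of all genes were called. The lists were chosen with earlier results of these data known, so this share is a description. The part in these changes of the cell types whose markers moved at this time, as given for Srxn1, was not tested. Of 15 partners and regulators of Nrf2, Bach1, the repressor that competes for the same elements, rose by 0.29 ± 0.06 (adjusted p = 0.0217). Sqstm1, the p62 adaptor that can sequester Keap1, rose by 0.28 ± 0.05 (adjusted p = 0.00785). Of 23 glutathione and conjugation genes, Chac1, which degrades glutathione, rose by 0.70 ± 0.14 (adjusted p = 0.0144) and the transferase gene Gstt1 by 0.55 ± 0.12 (adjusted p = 0.0278). Of 8 thioredoxin and peroxiredoxin genes, thioredoxin Txn1 rose by 0.19 ± 0.05 (adjusted p = 0.0354), and of 12 other known targets Akr1b8, an aldo-keto reductase gene, by 0.66 ± 0.12 (adjusted p = 0.0129). The fall was in the list of 7 heme and iron genes, where the transferrin receptor gene Tfrc fell by 0.86 ± 0.11 (adjusted p = 0.00131). Of 4 genes for the removal of superoxide and peroxide and 7 for the supply of NADPH, 0 were called, and 0 in either list passed an unadjusted p under 0.05.

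**Figure D4:**
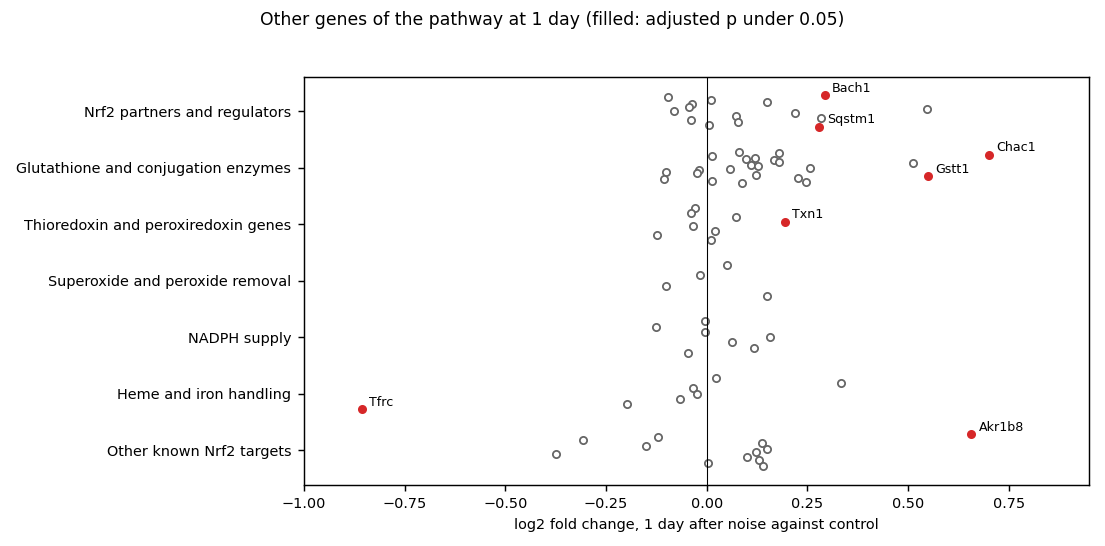
Log2 fold change at 1 day against control (horizontal axis) of each tested gene of 7 lists (rows). Filled points are called and named, open points are not. The called genes run from Tfrc at -0.86 to Chac1 at 0.70, and most other points lie near 0.

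Immediately after noise 2 of the 76 were called, or 2.63%, beside 0.931% of all genes. They were Maff and Chac1. Maff, a small Maf partner of Nrf2, rose by 1.38 ± 0.20 (adjusted p = 0.00481), from 6.71 to 8.09, and Chac1 rose by 0.64 ± 0.14 (adjusted p = 0.0373). At 7 and 14 days 0 of the 76 were called. At an unadjusted p under 0.05, 18, 19, 8 and 3 of the 76 passed immediately and at 1, 7 and 14 days against control. The shares of all genes were 15.5%, 17.9%, 11.2% and 7.85%. From immediately to 1 day 13 rose and 4 fell, or 22.4%, where 8.39% of all genes were called. Of these 17, the 6 called whichever array was left out were chosen for naming after their values were seen: Akr1b8 (0.83), Gsta4 (0.48), Mgst1 (0.36), Txn1 (0.25), Sqstm1 (0.25) and Tfrc (-0.59). With the mean over probe sets 3 of these were not called, Sqstm1 at 0.12 (adjusted p = 0.303), Mgst1 at 0.17 (adjusted p = 0.0981) and Txn1 at 0.22 (adjusted p = 0.154). From 1 to 7 days 1 rose and 10 fell, or 14.5%, beside 9.35% of all genes. Of these 11, 2 were called whichever array was left out, Bach1 and Txn1.

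Several of the calls at 1 day against control rested on single arrays or on the probe set. Sqstm1 and Tfrc were called whichever array was left out. Bach1 was not called without any control (adjusted p = 0.0504, 0.0644 and 0.0935 without replicate 1, 2 and 3) or without 1-day replicate 2 (0.24, adjusted p = 0.122) or 3 (adjusted p = 0.0736). That of Gstt1 ended without control replicate 1 (adjusted p = 0.0796) or 3 (adjusted p = 0.118) or 1-day replicate 2 (adjusted p = 0.106) or 3 (adjusted p = 0.0964). The 1-day call of Chac1 ended without control replicate 3 (adjusted p = 0.0579) or 1-day replicate 2 (adjusted p = 0.0833) or 3 (adjusted p = 0.0577), and Akr1b8 not without control replicate 3 (0.58, adjusted p = 0.0643). The call of Txn1 ended whichever control or 1-day array was left out (adjusted p from 0.0634 to 0.115), as did the immediate call of Chac1 with any control or immediate array left out (adjusted p from 0.0591 to 0.206), without 1-day replicate 3 or without any 14-day array (adjusted p from 0.0502 to 0.0530). The mean over probe sets gave 0.13 for Sqstm1 (adjusted p = 0.346), 0.07 for Txn1 (adjusted p = 0.762) and 0.19 for Bach1 (adjusted p = 0.118). In a fit to the groups compared alone, Bach1 (adjusted p = 0.0545) and Txn1 (adjusted p = 0.0587) were not called, and Txn1 also not without a trend (adjusted p = 0.0821) or after quantile normalization (0.18, adjusted p = 0.0506). With sex as a term Bach1 (adjusted p = 0.190), Gstt1 (adjusted p = 0.0516), Chac1 (adjusted p = 0.0861), Txn1 (adjusted p = 0.0822) and Akr1b8 (adjusted p = 0.117) were not called. Of the immediate calls, that of Chac1 ended with sex as a term (adjusted p = 0.0604), and those of Maff (adjusted p = 0.0665) and Chac1 (adjusted p = 0.0948) ended in female arrays alone.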

How the data were processed

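Per the labels, 50 ng of total RNA per sample was labelled with a 3′ expression kit for 1 Affymetrix array. The deposited values are on the log2 scale, and the submitters' processing notes name RMA, MAS5 and Affymetrix Expression Console, and do not say which gave the values. Nothing was normalized again in the main fits. At most 3.67% of values were identical between any 2 arrays. Of 45101 probe sets, 34945 paired with 1 gene symbol in the platform annotation, 932 with several and 9160 with none, and 64 were controls. A gene was represented by the brightest of its 1-gene probe sets, and the lowest 25% of genes were left out. The model of group means used limma 3.58.1 with R 4.3.3 (eBayes with a trend, two-sided, 10 residual degrees of freedom), for the 4 times against control, the 3 consecutive pairs and an F test. A second fit took every 1-gene probe set by itself, without the filter. The functions were tested on simulated data. The number of arrays limits the precision, and signal can compress near background, which may understate changes of dim probe sets. The members, lists and tests were chosen with earlier results of these data known. All 10 members were named. Of the other listed genes, the rule named the 2 largest called changes of each list against control. Other settings tried were the filter (none or 50%), the mean over probe sets, no trend, weights per array, quantile normalization, a block for replicate number, a term for sex, female arrays alone, fits to the compared groups alone, and leaving out each array.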

Additional observations from a re-analysis of the deposited data

Results flagged for a closer look

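For 3 members the level differed between consecutive times after noise, each by a test of that difference, with the 1-day samples all male and the neighbouring groups mostly female. With sex as a term the calls of Hmox1 (adjusted p = 0.0546) and of the brighter Nfe2l2 probe set (adjusted p = 0.0601 and 0.106) ended. For Srxn1 the change from immediately to 1 day was 0.55, and 0.53 on each of the probe sets 1451680_at and 1425351_at. From 1 to 7 days it was -0.47 for the gene, -0.47 on 1451680_at and -0.52 on 1425351_at. For Hmox1 the change from immediately to 1 day was 0.42. For Nfe2l2 the brighter probe set changed by -0.97 from immediately to 1 day and by 0.84 from 1 to 7 days, while 1457117_at changed by 1.99 and -2.13, in opposite directions at each step.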

How the results depend on the processing

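The 1-day rise of Srxn1 kept its direction and its call under all settings run: no filter, 50% filter, mean over probe sets, no trend, array weights, replicate block, only the groups compared, quantile normalization, sex as a term and each array left out, while female arrays alone could not give it. Nfe2l2 reversed with the mean over probe sets, at 0.55 at 1 day against control, 0.51 from immediately to 1 day and -0.65 from 1 to 7 days, by construction, since its probe sets oppose each other. Array weights called 1 member immediately, 2 at 1 day and 2 by the F test, and 757 genes immediately, 1106 at 1 day, 1 at 14 days, 1898 from immediately to 1 day, 710 from 1 to 7 days and 1798 by the F test. Without weights these were 0, 1 and 1 members, and 127, 434, 0, 1145, 1276 and 921 genes. Sex as a term gave 1 member in place of 3 from immediately to 1 day and 1 in place of 2 from 1 to 7 days, and 79 genes immediately, 75 at 1 day, 652 from immediately to 1 day, 449 from 1 to 7 days and 435 by the F test. Female arrays alone gave 8 genes immediately. Only the groups compared gave 1 gene in place of 3 at 7 days, and 200 genes and 1 member from 1 to 7 days, and the 50% filter 7 genes at 7 days. The causes of these moves were not tested, except that female arrays alone and only the groups compared rest on fewer samples. With 1 array left out, genes called ran from 29 to 171 immediately, 109 to 584 at 1 day, 2 to 50 at 7 days, 0 to 1 at 14 days, 386 to 1311 from immediately to 1 day, 427 to 1327 from 1 to 7 days, 0 to 1 from 7 to 14 days and 306 to 1275 by the F test. Members called ran from 1 to 2 at 1 day, 1 to 4 from immediately to 1 day, 1 to 2 from 1 to 7 days and 1 to 2 by the F test.

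Correlations between same-numbered arrays of different groups ran from -0.33 to 0.30, and 11 of 30 were over 0.1. Those between arrays of different numbers ran from -0.49 to 0.37. The main fit did not take the replicate numbers to pair the samples, and whether they do cannot be told from these values. With the replicate number as a block, 182, 567 and 3 genes were called immediately, at 1 day and at 7 days, 1375 from immediately to 1 day, 1505 from 1 to 7 days and 1138 by the F test, with 1 member at 1 day, 4 from immediately to 1 day and 2 from 1 to 7 days. Of 15 arrays 9 correlated best with their own number. The number of arrays, 3 per group, limits the precision.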
